A study of Caenorhabditis elegans with 2 samples.

Results

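DAF-12 occupancy was examined at 10 genes of the Wnt signalling pathway of Caenorhabditis elegans: lit-1, mom-1, mom-2, mom-5, lin-44, egl-20, bar-1, pop-1, sys-1 and wrm-1. They were taken by name from the WBcel235 annotation, and all 10 were found among its 19973 protein-coding genes. For each gene, regions were counted where their summit lay in a window from 5 kb upstream of its first annotated start to the gene end, introns included. DAF-12 is a nuclear hormone receptor bound by the steroid dafachronic acids, which acts in developmental timing and in the choice between dauer arrest and growth. Chromatin bound by a fusion of it with eGFP was precipitated and sequenced (ChIP-seq). The series has 1 group of 2 samples, biological replicates 1 and 2, each of whole L3 larvae of strain OP222, whose genotype is unc-119(ed3) III; wgIs222. The integrated transgene wgIs222 carries the tagged daf-12 in both replicates. The labels give pooled sexes, an age that is unknown and daf-12 as the antibody target. No untagged or treated group was analysed here, so no condition could be compared. In whole animals, strong occupancy in few cells and weak occupancy in many cannot be told apart.

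Wnt proteins are secreted signals that direct cell polarity, fate and migration. Before secretion they are acylated in the producing cell, and they are then bound by Frizzled receptors on the receiving cell. Beta-catenins carry the signal to the nucleus, where they act with a TCF factor on target genes. In C. elegans a branch of the pathway sets unequal levels of nuclear POP-1, the TCF factor, and of SYS-1 in the daughters of dividing cells, among them the larval seam cells of the epidermis.

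Each region came with a signal value and no count of reads, which leaves sequencing depth unknown. Each replicate and the pool of both had a list of 30000 regions, which holds background as well as peaks. The lowest signal listed was 9.10 in the pool, 4.79 in replicate 1 and 5.80 in replicate 2, and the medians were 11.98, 6.62 and 7.84. A signal divided by the median of its own list is called its multiple of the list median below. The authors also deposited 150 IDR peaks, selected by the irreproducible discovery rate, which scores each region by the agreement of its ranks. They were the 150 highest regions of the pool, with signals of 33.5 or more. Summits within 100 bp of each other were taken as the same region. For a pooled region, each replicate was compared with the pooled summit, so the 2 replicate summits could lie further apart than 100 bp. For counts among the highest regions of both replicates, the replicate summits were compared with each other. All coordinates are 1-based in ce11. Windows of all protein-coding genes held 2.97 pooled regions per 10 kb and those of the 10 Wnt genes 3.47, and 17467 of the 19973 genes had at least 1 pooled region. Rank and recurrence between replicates are therefore given for each region.

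Of the 10 genes, mom-1 had an IDR peak, and it was a strong one. Among the 10 windows, that of mom-1 alone held a region among the 150 highest of both replicates. The share of all protein-coding genes with an IDR summit in the window was 1.23% (246 of 19973), and the share with a region among the 150 highest of both replicates was 0.521%. With the limit at the 1000 highest of both replicates, the count was again 1 of 10, mom-1, beside 1.13% of all genes.

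**Figure D1:**
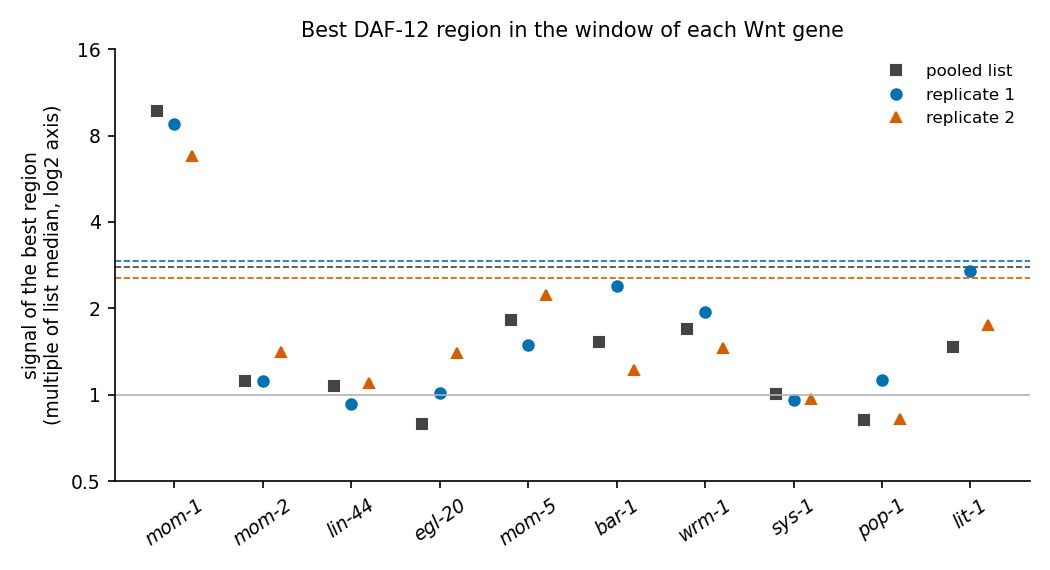
Signal of the highest region in the window of each of the 10 Wnt genes (vertical axis, multiple of the list median, log2 axis), in the pooled list (squares), replicate 1 (circles) and replicate 2 (triangles); the dashed lines mark the region of rank 150 in each list and the grey line the list median. Each point is to be read against the dashed line of its own list. Only mom-1 lies above that line, at 9.78, 8.79 and 6.82, and lit-1 reaches 2.69 in replicate 1, below the line of replicate 1.

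mom-1 (WBGene00003394, chrX:6293112-6298305, plus strand) encodes the Porcupine-type acyltransferase that acts on Wnt proteins before their secretion. The peak had its summit at X:6296599 in the pooled list, where it ranked 7 with a signal of 117.2. In replicate 1 it ranked 11 with a signal of 58.2 and a summit at X:6296592. In replicate 2 it ranked 7 with a signal of 53.5 and a summit at X:6296599. The replicates thus placed it 7 bp apart, against a median of 29 bp over the 142 IDR peaks listed in both. As multiples of the list median the replicates gave 8.79 and 6.82, a log2 ratio of 0.37. Over those 142 peaks the log2 ratio had a median of 0.23 and an SD of 0.68, and 82 of them had a log2 ratio of at least this size in either direction.

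The summit lay in the last intron of mom-1, intron 7 of 7, which spans chrX:6296494-6297792 and at 1299 bp is the longest of the gene. It was 106 bp into the intron, 1194 bp from the start of the last exon, and 3487 bp downstream of the only annotated start. The deposited region, X:6296427 to 6296770, also covers the end of exon 7. By signal it was the highest of the 29 IDR peaks with a summit in an intron of a protein-coding gene; the next had a signal of 89.0 and ranked 16 among all peaks. Among the 43 IDR peaks on X it was the third. Only 0.0501% of protein-coding genes had a pooled region of at least this signal in their window.

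The position does not assign the peak to mom-1 alone. The nearest annotated start of a protein-coding gene was that of cest-16 (X:6299942), 3343 bp away on the same strand. The summit also fell in the window of cest-16 and, 133 bp inside its edge, in that of lev-9 (X:6291732), which encodes a protein needed to cluster acetylcholine receptors in muscle and whose start was 4867 bp away. Which of the 3 genes, if any, the occupancy bears on was not tested.

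The bases around this summit are shown because they carry the only strong and repeated region of the 10 genes. The sequence covers chrX:6296549-6296649 on the plus strand of RefSeq WBcel235, 50 bp to each side of the summit, and any match to the motifs searched would be in capitals.
mom-1 peak: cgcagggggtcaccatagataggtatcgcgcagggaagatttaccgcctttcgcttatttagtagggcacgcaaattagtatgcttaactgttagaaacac
The search covered both strands, counted overlapping matches separately, and took 7 motifs, GAGAG and 6 hexamers of the kind that nuclear receptors bind. Each is named here with the share of the 150 IDR windows of this length that held it: AGTGTG in 12.7%, then AGTGCA in 12.7%, then AGTGCG in 8.0%, then AGTACA in 10.7%, then AGTTCA in 2.67%, then AGGTCA in 3.33%, and GAGAG in 46.7%. None occurred in these 101 bases, which says only that these letters are not in this window. Of the windows at all 150 IDR summits, 37.3% also had none, and of those at all 30000 pooled summits 70.0% had none. A wider search, added after the window had been seen, took the whole deposited region. It also held no match, as did 17 of the 150 IDR regions (11.3%). The GC content of the window, 46.5%, was near the median of the IDR windows (47.5%) and above that of all pooled windows (33.7%). No base of it was marked as repeat or low-complexity sequence in the RefSeq genome.

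**Figure D2:**
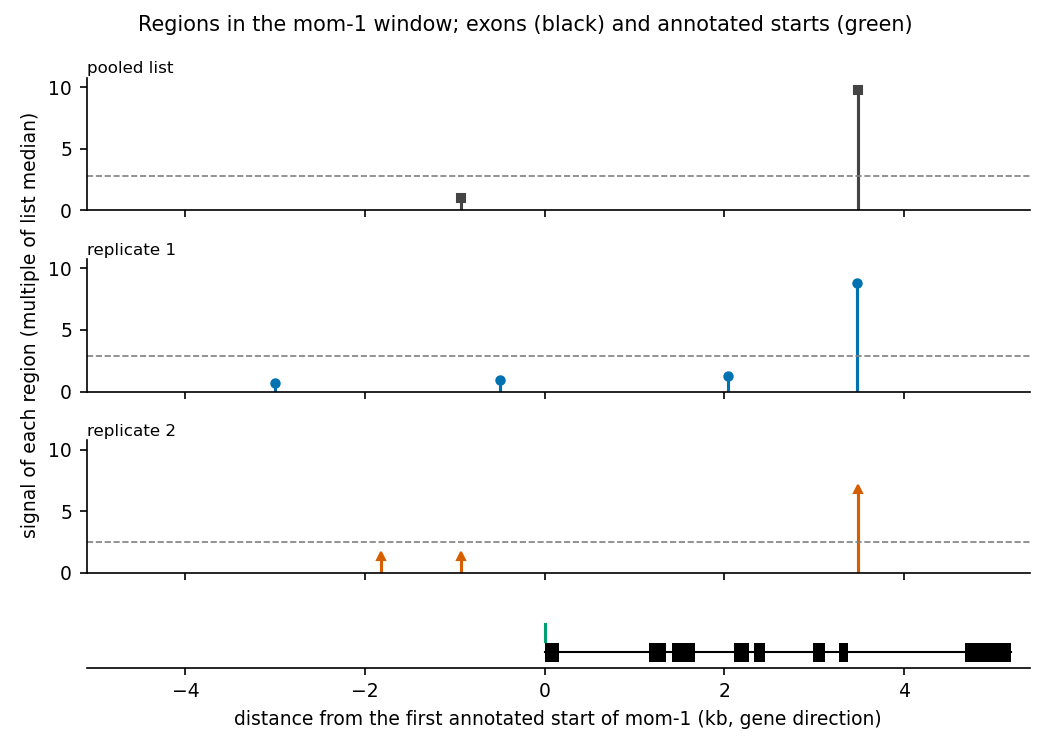
Regions in the mom-1 window in the pooled list and the replicates (vertical axes, signal as a multiple of the list median) against distance from the annotated start (horizontal axis, kb); black boxes are exons, the green bar is the start and dashed lines mark the region of rank 150 in each list. The same intronic position stands out in all 3 panels, at 9.78, 8.79 and 6.82, and every other region is at 1.36 or below.

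The rest of the mom-1 window was near background. The pooled list had 1 other region there, 935 bp upstream of the start, with a signal of 11.9 and rank 15423. Replicate 2 listed it with a signal of 10.7 and rank 4812, and replicate 1 did not list it. Its nearest coding start was that of lev-9, at 445 bp. Within 20 kb of the intronic summit, the highest other pooled region had a signal of 17.4, the highest of replicate 1 was 9.90 and the highest of replicate 2 was 10.7. These are 1.45, 1.49 and 1.36 times the list medians.

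lit-1 (WBGene00003048, chrIII:13701991-13724404, plus strand) encodes the Nemo-like kinase that, with WRM-1, phosphorylates POP-1 and lowers its nuclear level. It is among the genes proposed earlier as DAF-12 targets. The gene is long, with 7 annotated starts, and its 27.4 kb window was longer than that of 99.2% of protein-coding genes. It had no IDR peak. The window held 16 pooled regions, 14 of replicate 1 and 13 of replicate 2, or 5.84, 5.11 and 4.74 per 10 kb.

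The highest lit-1 region of any list was found in replicate 1, with its summit at III:13718784, a signal of 17.8 and rank 196. It lay in an intron, 425 bp downstream of an annotated start at III:13718359. In replicate 2 the nearest summit was 690 bp away, so this region was not listed there. The pool placed it at rank 4911, with 1.34 times the list median. The highest region of replicate 2 was another, at III:13717180, with a signal of 13.7 and rank 1250, and the nearest summit of replicate 1 was 511 bp from it. The replicates' own best regions were 1604 bp apart.

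The highest lit-1 region of the pooled list was again at another place, III:13721647, with a signal of 17.6 and rank 2994. Replicate 1 listed it with a signal of 9.15 and rank 5101, and the nearest summit of replicate 2 was 179 bp away. Close behind it was a region in the long intron after the first exons, at III:13704783, with a pooled signal of 17.6. There replicate 2 had a signal of 13.4 and rank 1455, and replicate 1 had no summit within 2477 bp. Among the 16 pooled regions, 2 had a summit of each replicate within 100 bp of the pooled summit, and both lay at internal starts. The region at III:13717983, 18 bp from a start, had signals of 7.05 in replicate 1 and 10.6 in replicate 2. Its replicate summits were 134 bp apart. The region at III:13719473, 77 bp from a start, had 8.99 and 6.29. These signals are 0.802 to 1.36 times the list medians. The replicates also had upstream summits 80 bp apart, at III:13697506 and III:13697426, with signals of 8.87 and 8.68. The pooled summit there, III:13697388, was 118 bp from that of replicate 1, so this region was not counted.

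**Figure D3:**
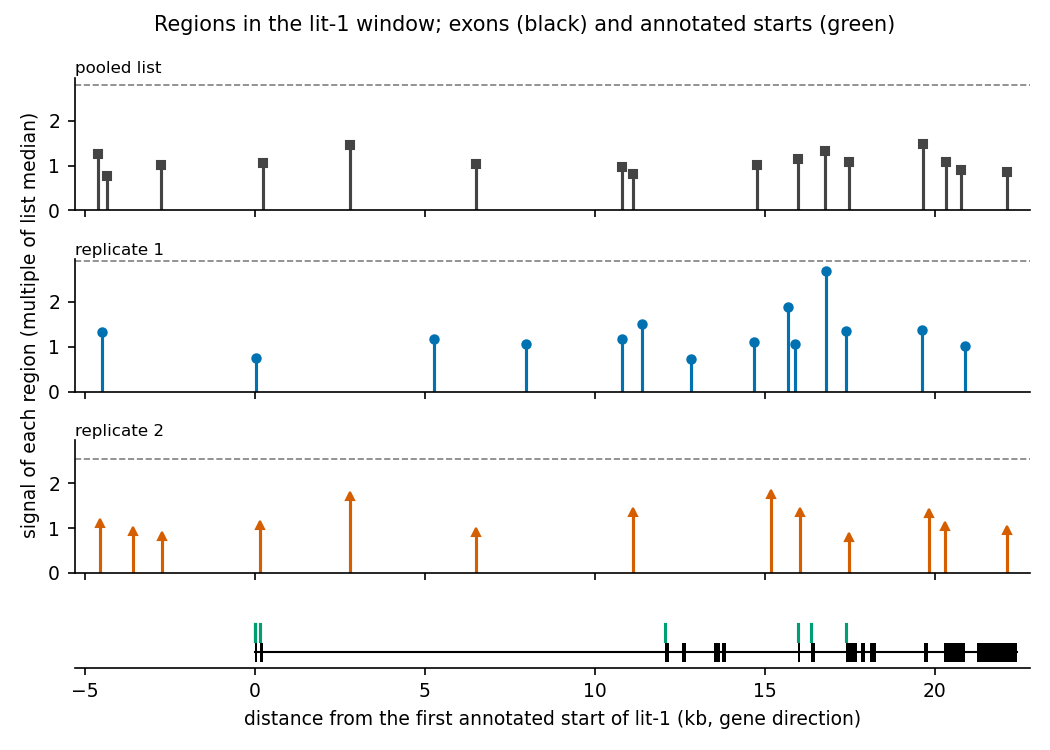
Regions in the lit-1 window in the pooled list and the replicates (vertical axes, signal as a multiple of the list median) against distance from the first annotated start (horizontal axis, kb); black boxes are exons of any transcript, green bars annotated starts, and dashed lines the region of rank 150 in each list. No region reaches a dashed line, and the highest of replicate 1, at 2.69, has no counterpart at its position in replicate 2.

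The window around the replicate 1 summit, chrIII:13718734-13718834, is shown on the plus strand for comparison with the mom-1 sequence. It held none of the 7 motifs, and its GC content was 40.6%.
lit-1 region of replicate 1: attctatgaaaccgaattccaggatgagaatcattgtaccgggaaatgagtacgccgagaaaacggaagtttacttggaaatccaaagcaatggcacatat

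The Wnt ligand genes had only weak regions. For mom-2 (WBGene00003395, chrV:8355988-8358185), whose product polarises early blastomeres, the best region was at V:8353158, 2830 bp upstream of the start, with pooled rank 10327. Its signals were 7.38 in replicate 1 and 8.18 in replicate 2, both near the list medians, and the start of srsx-22, a chemoreceptor gene, was nearer (1487 bp). Replicate 2 had a higher region at V:8354301 with a signal of 11.0 and rank 4193.

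For egl-20 (WBGene00001188, chrIV:9812357-9815532, minus strand), a ligand that guides migrating neuroblasts, all 3 pooled regions were weak, at ranks 27743 to 28610. The best of them had a signal of 9.44, and its summit was in an exon of catp-6, the neighbouring gene. Replicate 2 had a region 1090 bp upstream of the egl-20 start with a signal of 11.0 and rank 4253, and replicate 1 had no summit within 1529 bp of it. The best of replicate 1 was in an intron of catp-6, with a signal of 6.72.

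For lin-44 (WBGene00003029, chrI:4126056-4129310), a ligand made in the tail that orients nearby cells, the best pooled region ranked 11833 and lay in an exon 268 bp from the start. Its signal was 12.9 in the pool and 8.60 in replicate 2, and replicate 1 did not list it. The best region of replicate 1 lay 919 bp downstream of the start with a signal of 6.16 and rank 18092. None of the 3 ligand genes had a region above 1.41 times the list median in either replicate.

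mom-5 (WBGene00003397, chrI:9965574-9970037) encodes a Frizzled receptor. Its best pooled region, at I:9962907, ranked 930 with a signal of 21.9, the second highest pooled signal of the 10 genes. Replicate 2 listed it with a signal of 17.4 and rank 303. Replicate 1 had no summit within 541 bp. The region was 2667 bp upstream of the mom-5 start and 930 bp from that of algn-10, on the other strand, so the nearer start was not that of mom-5. A region in the body of mom-5, 2398 bp downstream of the first start, was listed in both replicates, with signals of 8.65 and 12.6. Its pooled rank was 8344. Each replicate summit was within 100 bp of the pooled one, but they were 103 bp from each other.

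The beta-catenin genes differed from each other. bar-1 (WBGene00000238, chrX:7166005-7170625, minus strand), which encodes the beta-catenin of the canonical branch, had its best pooled region at X:7173512, 2887 bp upstream of its start, with a signal of 18.3 and rank 2478. Replicate 1 listed it with a signal of 15.8 and rank 314, and the nearest summit of replicate 2 was 1596 bp away. The highest region of replicate 2 was in an intron of bar-1, with a signal of 9.58 and rank 7647. It overlapped a pooled region at X:7169679, also in an intron, with a signal of 17.9 and rank 2802. Their summits were 164 bp apart, so they were not taken as the same region. Replicate 1 had no summit within 1032 bp of that pooled summit. The bar-1 upstream region was therefore strong in replicate 1 and not listed in replicate 2.

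wrm-1 (WBGene00006943, chrIII:5722850-5727115, plus strand), which encodes the beta-catenin that works with LIT-1, showed the same kind of split. Its best pooled region lay 2821 bp upstream of the start at III:5720029, with a signal of 20.3 and rank 1367. Replicate 1 listed it with a signal of 12.8 and rank 982, and the nearest summit of replicate 2 was 1905 bp away. Replicate 2 had its highest region in an exon, 2222 bp downstream of the first start, with a signal of 11.4 and rank 3605.

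sys-1 and pop-1 were near or below the list medians in every list. For sys-1 (WBGene00006379), the divergent beta-catenin that acts as coactivator of POP-1, the best pooled region lay 1411 bp upstream of the first start with a signal of 12.1 and rank 14750. Its signals were 5.20 in replicate 1 and 6.65 in replicate 2. For pop-1 (WBGene00004077), the best pooled region was in an intron, with a signal of 9.81 and rank 25480. Replicate 2 listed it with a signal of 6.39, and replicate 1 had no summit within 2823 bp.

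The upstream regions of bar-1 and wrm-1 are shown because they were, beside lit-1, the regions of highest rank in replicate 1 alone. The sequences run 50 bp to each side of the pooled summits on the plus strand, at chrX:7173462-7173562 and chrIII:5719979-5720079. In capitals are GAGAG in the bar-1 sequence and, in the wrm-1 sequence, CGCACT, the reverse complement of AGTGCG.
bar-1 upstream region: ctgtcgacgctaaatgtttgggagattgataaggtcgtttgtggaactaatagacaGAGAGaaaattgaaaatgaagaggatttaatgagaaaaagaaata
wrm-1 upstream region: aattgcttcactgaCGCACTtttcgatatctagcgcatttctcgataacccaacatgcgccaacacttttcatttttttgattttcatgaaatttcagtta
Of all pooled windows of this length, 13.2% held GAGAG, then 6.65% held AGTTCA and 1.63% held AGTGCG. Over the best pooled summits of the 10 genes, GAGAG was present at 5 (bar-1, egl-20, lin-44, mom-5 and pop-1), AGTTCA at 2 (mom-2 and pop-1) and AGTGCG at 1 (wrm-1), and the other 4 motifs at 0.

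Regions of high rank in a single replicate were seen at several of these genes, and 1 such region was shared. Replicate 1 had a region among its 1000 highest in 4 of 10 windows (mom-1, lit-1, bar-1 and wrm-1), beside 7.4% of all protein-coding genes. Replicate 2 had one in 2 of 10 (mom-1 and mom-5), beside 7.62%, and the pool in the same 2 genes, beside 7.22%. The windows of the 10 genes were longer than usual, with a median of 9542.5 bp against 7027 bp for all genes. Apart from mom-1, no gene was among those of both replicates.

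Of the 39 pooled regions in the 10 windows, 6 were listed in both replicates (15.4%), close to the 13.9% of the whole pooled list. Listed here means a replicate summit within 100 bp of the pooled one. Replicate 1 alone listed 9, replicate 2 alone 17 and neither 7, where the same counts over the whole list of 30000 were 8383, 11061 and 6395. Besides the mom-1 peak, the 6 were the 2 internal lit-1 regions and 1 each at mom-2, mom-5 and sys-1, with replicate multiples of 0.785 to 1.61.

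**Figure D4:**
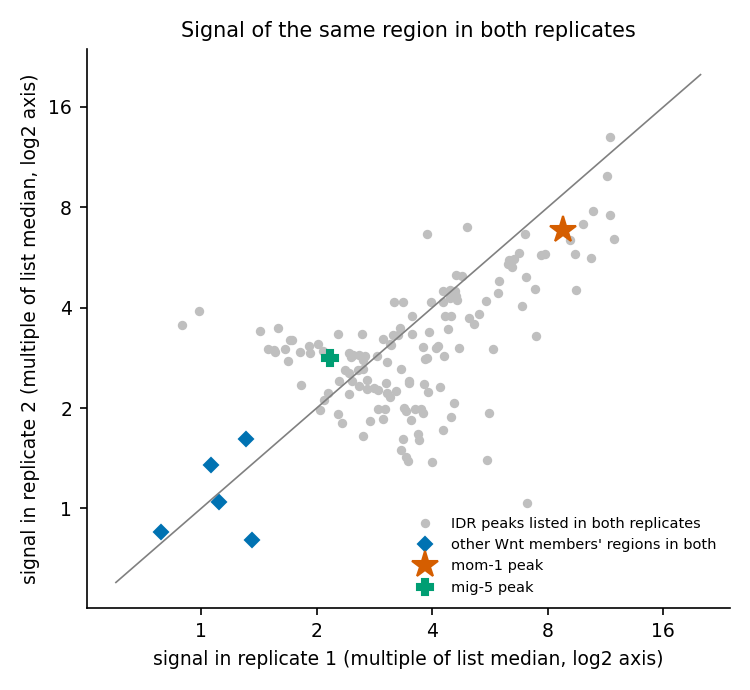
Signal in replicate 1 (horizontal axis) against replicate 2 (vertical axis), as multiples of the list medians on log2 axes; the line marks equal multiples. Grey points are the 142 IDR peaks listed in both replicates, the star is the mom-1 peak (8.79 and 6.82), the cross is the mig-5 peak (2.17 and 2.82) and the 5 diamonds are the regions of the other genes among the 10 that both replicates listed, all at 1.61 or below.

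Ordered by the mean of the best multiples of the replicates, mom-1 came first at 7.80 ± 1.39 (SD, n = 2), followed by lit-1 at 2.22 ± 0.66, mom-5 at 1.85 ± 0.52, bar-1 at 1.81 ± 0.83 and wrm-1 at 1.69 ± 0.34. The replicate values of mom-1 and lit-1 did not overlap, while those of lit-1, mom-5, bar-1 and wrm-1 overlapped from each to the next. Lower in the order were mom-2 at 1.26 ± 0.21, egl-20 at 1.21 ± 0.27, lin-44 at 1.01 ± 0.12, pop-1 at 0.97 ± 0.21 and sys-1 at 0.963 ± 0.0093. The values of wrm-1 and mom-2 did not overlap, and from mom-2 on each overlapped the next. Only neighbours in the order are compared in this way. The lower value of bar-1, 1.22, lay within the values of mom-2 and of egl-20, so the upper and lower genes were not separated. These are the best regions of each replicate, which lay at the same place for mom-1 and 588 to 8032 bp apart for the other 9 genes. With 2 replicates of 1 group, no test was made.

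**Figure D5:**
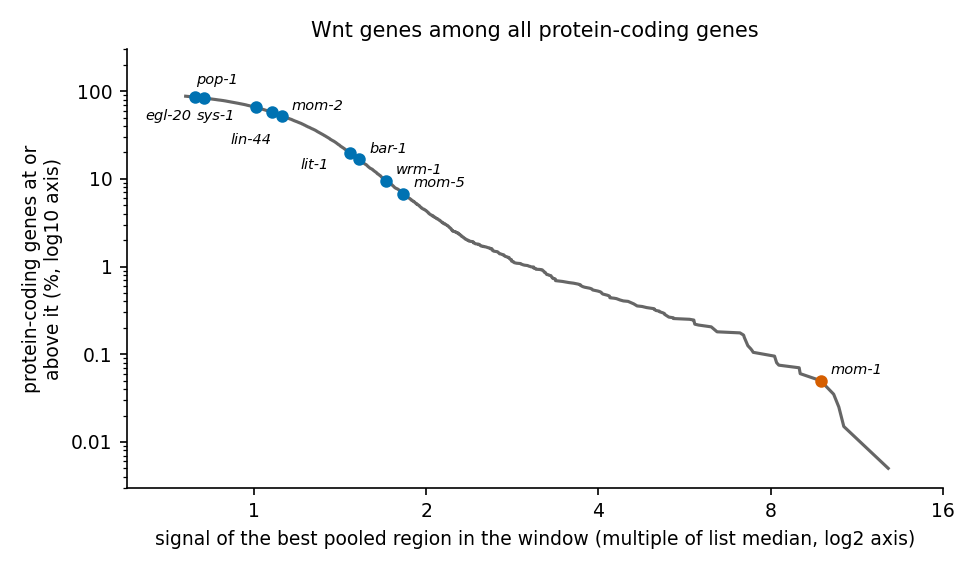
Share of all 19973 protein-coding genes (vertical axis, percent, log10 axis) whose window holds a pooled region at or above a given signal (horizontal axis, multiple of the list median, log2 axis), with the 10 Wnt genes marked. The curve places mom-1 at 0.0501%, mom-5 at 6.76%, wrm-1 at 9.56%, bar-1 at 16.8% and lit-1 at 19.9%, and the other 5 between 52.3% and 85.4%.

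Over the 17467 protein-coding genes with a pooled region in the window, the median best pooled region was 1.20 times the list median, and for the 10 Wnt genes, all of which had one, it was 1.29. In replicate 1 the medians were 1.24 over 17545 genes and 1.30 for the 10, and in replicate 2 they were 1.21 over 17712 genes and 1.40. Without mom-1 the medians of the other 9 were 1.12 in the pool, 1.12 in replicate 1 and 1.40 in replicate 2. The median of the 9 was thus below that of all genes with a region in the pool and replicate 1, and above it in replicate 2. Single genes lay on both sides. In the pool and replicate 1, lit-1, mom-5, bar-1 and wrm-1 were above the median of all genes. In replicate 2, lin-44, pop-1 and sys-1 were below it.

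The wider pathway was followed in a list of 32 other Wnt genes: ligands, receptors, secretion factors, antagonists, Dishevelled proteins, the destruction complex, kinases, an adhesion beta-catenin and targets. Of these, 1 had an IDR peak, mig-5, beside the 1.23% of all genes, and 0 had a region among the 1000 highest of both replicates, beside 1.13%. mig-5 (WBGene00003241, chrII:8182323-8185023, minus strand) encodes a Dishevelled protein, which relays the signal from Frizzled receptors. Its peak ranked 103 in the pool with a signal of 38.5 and a summit at II:8185229. In replicate 1 the signal was 14.4 (rank 534) and in replicate 2 it was 22.1 (rank 102), with summits 103 bp apart, just beyond the distance taken as the same region. Both replicates had a summit within 59 bp of the pooled one.

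The mig-5 summit lay between divergent genes, 206 bp upstream of mig-5 and 214 bp upstream of cct-1, which encodes a subunit of the cytosolic chaperonin. Its position therefore does not distinguish these starts. The window chrII:8185179-8185279, on the plus strand, is shown as the only IDR summit of the list. It held none of the 7 motifs, and neither did the whole deposited region.
mig-5 peak: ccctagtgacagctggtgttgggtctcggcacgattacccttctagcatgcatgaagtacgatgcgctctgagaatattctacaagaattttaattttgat

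In the other 31 genes of the list no IDR summit was found. Of all 32, a region among the 1000 highest was found for 2 in the pool, 3 in replicate 1 and 2 in replicate 2, mig-5 included each time, beside 7.22%, 7.4% and 7.62% of all genes. In the pool, cam-1, which encodes a ROR-type receptor tyrosine kinase, had an intronic region of rank 403 with a signal of 25.7, and its signals in the replicates were 7.24 and 10.9. Replicate 1 alone had regions among its 1000 highest at pry-1, an Axin of the destruction complex (signal 14.5, rank 520), and at gsk-3, the kinase of that complex (signal 13.96, rank 627), the latter in an exon of the neighbouring gene Y18D10A.4. Replicate 2 alone had one in an intron of mig-1, a Frizzled gene (17.0, rank 349). These 4 genes were named after their values were seen.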

How the data were processed

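Each region list was made by the authors, per the deposited notes, from the alignment of 1 replicate, or of both pooled, with a control alignment, in ce11. The signal value per region was deposited by the authors, with its scale not stated; the sources used here name no caller, aligner or IDR threshold. Lists in ce10 were left out, since no annotation of that build was at hand, and neither alignments nor tracks of signal entered the work. Depth is unknown, so no counting error is given.

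Regions were ranked by signal, with the summit at column 2 + column 10 + 1. Genes and starts were those of Ensembl release 115 (WBcel235) on 6 nuclear chromosomes. All regions lay within the RefSeq chromosome lengths of that assembly, and sequences were read from it. Python 3.11.15, pandas 2.3.3, numpy 2.4.6 and matplotlib 3.10.9 were used, and the scripts were tested on simulated lists.

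The genes, lists and motifs were chosen with earlier results of these data known. Named were all 10 genes, other Wnt genes with an IDR summit or a region among the 1000 highest of both replicates, and the genes nearest to or holding a summit; cam-1, pry-1, gsk-3 and mig-1 fall outside this rule and were named after their values were seen. No test was made: shares of all protein-coding genes serve as the background. Alternatives were other windows (2 kb and 10 kb), overlap rules, distances, rank limits and single replicates.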

Additional observations from a re-analysis of the deposited data

How the results depend on the processing

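The counts that single out mom-1 did not change under any alternative run. These alternatives could add genes but could not remove mom-1, whose summit lies in the gene body with ranks of 7, 11 and 7. Assignment by nearest start alone, which would be to cest-16, was not run. The counts stayed at 1 of 10 genes, mom-1, with 2 or 10 kb upstream, any overlap of the region, and assignment by nearest start or gene body. The IDR count also stayed with the 75 highest peaks. It was 1 too when the 150 highest regions of either replicate alone took the place of the IDR peaks. The counts over both replicates stayed with summits within 50 or 200 bp and with halved or doubled rank limits. The share of all genes moved with the setting: 0.786% with an IDR summit at 2 kb and 1.87% at 10 kb, and for the 1000 highest of both replicates 0.766% and 1.72%, then 1.29% with 200 bp and 1.54% with the doubled limit. The multiple of the mom-1 peak was 9.78 in the pool and ranged from 6.82 to 8.79 in single replicates. The mig-5 peak depended more on the choices. Of the 32 other genes, 0 had a peak among the 75 highest, 0 to 1 (mig-5) among the 150 highest of a single replicate, and 1 (mig-5) a region among the 1000 highest of both replicates with summits within 200 bp. The best pooled region was listed in both replicates for 3 of the 10 genes (mom-1, mom-2 and sys-1). That count was 1 with summits within 50 bp, 5 with 200 bp, 1 with 10 kb upstream, 3 (with mom-5 in place of mom-2) with 2 kb, and 6 to 7 when a single replicate had to list it. The lit-1 value in replicate 2 alone could not be given, as no region was listed within 100 bp. The cause of these shifts was not tested. No paired analysis was possible because the series has 1 group. The 2 replicates and the unknown depth limit every statement on weak regions. A region called not listed had no summit within 100 bp in that list. It may lie below the lowest signal or have its summit further away, which was not tested. At lit-1, a replicate 2 region with a signal of 10.5 overlapped the highest pooled region, with its summit 179 bp away.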
